A study of Mus musculus with 12 samples.

Results

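The 35 genes described here encode the core machinery of the cell cycle and of DNA replication, in 6 roles: D cyclins and their kinases, inhibitors of cyclin-dependent kinases (CDKs), the E, A and B cyclins and their kinases, transcription factors, DNA replication proteins, and mitotic proteins with the usual proliferation markers. They come from a list of gene symbols that was drawn up with earlier results of these data known. All 35 were found among the 31253 gene symbols of each file. RNA sequencing of total liver RNA gave 12 libraries, all from male mice of the C57BL6 background. The s302a Den group carried the CUGBP1 s302a knock-in allele and had been given diethylnitrosamine (DEN), a liver carcinogen, at 50 ug per g of bodyweight when 3 weeks old. The WT Den group was wild type and received the same dose at the same age. The s302a Ctrl group carried the knock-in allele and the WT Ctrl group was wild type, and neither was treated. Each group had 3 libraries. One label field gives the age at sacrifice as 33 to 41 weeks, another gives 30 to 38 weeks, and the treatment protocol counts the second range from treatment. The labels do not give the age of a single library, whether each library is a separate animal, or whether the piece of liver taken held a tumour. The p-values below therefore measure only the spread between these samples.

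Most hepatocytes of an adult liver rest outside the cell cycle. In a cell that enters it, D cyclins activate CDK4 and CDK6, the retinoblastoma protein is phosphorylated and E2F factors are released, and genes for E cyclins, for the MCM helicase that opens the DNA and for nucleotide synthesis are transcribed. Later, A and B cyclins with CDK1 and the mitotic kinases carry the cell through division, and CDK inhibitors hold each step back. DEN is converted in hepatocytes to a DNA-alkylating species and is widely used to induce liver tumours in mice, and CUGBP1, encoded by Celf1, is an RNA-binding protein.

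Values were TPM, a relative transcript level that corrects for transcript length and sums to a fixed total, so levels of different genes can be set side by side while the sequencing depth behind them is unknown. No value lay below 1 TPM, and 1 was read as a floor: a gene listed at 1 was at 1 or less. The library s302a Den 3 stood apart from the other 11 and is shown apart throughout. Of all gene symbols, 13083 were above the floor in it and 10839 to 11653 in each of the others, and its median-of-ratios factor (the median ratio of its genes to their geometric mean over the 12 libraries) was 1.69, against 0.820 to 1.18. Hepatocyte markers were abundant in every library: the summed TPM of 10 markers was 52201 in s302a Den 3 and 39849 to 88015 in the others. Alb alone made 33122 TPM of that sum in s302a Den 3. Only 1 of the 10 was highest in s302a Den 3, against 70.6% of the 13995 genes above 1 TPM in any library. All 9 stellate cell and fibroblast markers were highest in s302a Den 3 (summed 164 TPM, against 31.7 to 79.3 in the others), as were all 6 of the cholangiocyte and progenitor markers above the floor (147 TPM, against 21.1 to 69.2; Krt7 and Cftr were at 1 in all 12). Of 9 macrophage markers, 6 were highest there (518 TPM, against 86.3 to 227), and so were 5 of 7 endothelial markers (86.6 TPM, against 35.8 to 89.1). Among T and NK cell markers, 5 of the 7 above the floor were highest there (17.0 TPM, against 10.0 to 11.9), while Cd2, Cd8a and Klrb1c were at 1 in all libraries. For B and plasma cells it was 1 of 2 markers above the floor (8.01 TPM, against 5 to 5.90, with Ms4a1 and Mzb1 at 1), for neutrophils 2 of 3 (23.7 TPM, against 6.04 to 22.3, with Mpo and Elane at 1), and for erythroid cells 0 of 4 (1735 TPM, against 1171 to 8929). Of 6 tumour and fetal liver genes above the floor, 5 were highest in s302a Den 3 (765 TPM, against 10.48 to 52.3, with H19 and Igf2 at 1). The shares for macrophage (66.7%), endothelial (71.4%) and T and NK markers (71.4%) were close to the 70.6% of all genes. After division by the factor, s302a Den 3 stayed highest for 7 of 9 stellate, 4 of 6 cholangiocyte and 4 of 9 macrophage markers. The same held for 3 of 7 endothelial, 2 of 7 T and NK and 0 of 10 hepatocyte markers, and for 24.8% of all genes. The part of any of these in the values below was not tested, and in whole liver RNA more cells of a type and more RNA per cell cannot be told apart.

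Most of the machinery was at or near the floor in 11 of the 12 libraries. Of the 35 genes, 10 were above 1 TPM in all 12 libraries, 12 in 3 to 11 libraries, 12 in only 1 or 2, and Ccne2, which encodes cyclin E2, was at 1 in all 12. In s302a Den 3, 34 of 35 were above 1 TPM, against 14 and 15 in s302a Den 1 and 2, 16 to 23 in WT Den, 14 to 16 in s302a Ctrl and 16 to 18 in WT Ctrl. Above 5 TPM stood 24 of them in s302a Den 3 and 6 to 8 in each of the others. Their summed level was 444 TPM in s302a Den 3, against 108 to 161 TPM elsewhere. The genes that every library held above the floor were Ccnd1, Ccnd3, Cdk4, Cdkn1b, Cdk2, Mcm7, Pcna, Rrm1, Rrm2 and Tyms. Outside s302a Den 3 their median levels were highest for Pcna (23.9 TPM), Cdk4 (22.9 TPM) and Ccnd3 (16.3 TPM). Cdkn1b (8.48 TPM), Tyms (6.51 TPM), Mcm7 (5.99 TPM) and Cdk2 (4.99 TPM) came next, and Ccnd1 (3.15 TPM), Rrm2 (2.72 TPM) and Rrm1 (2.05 TPM) were lowest.

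**Figure D1:**
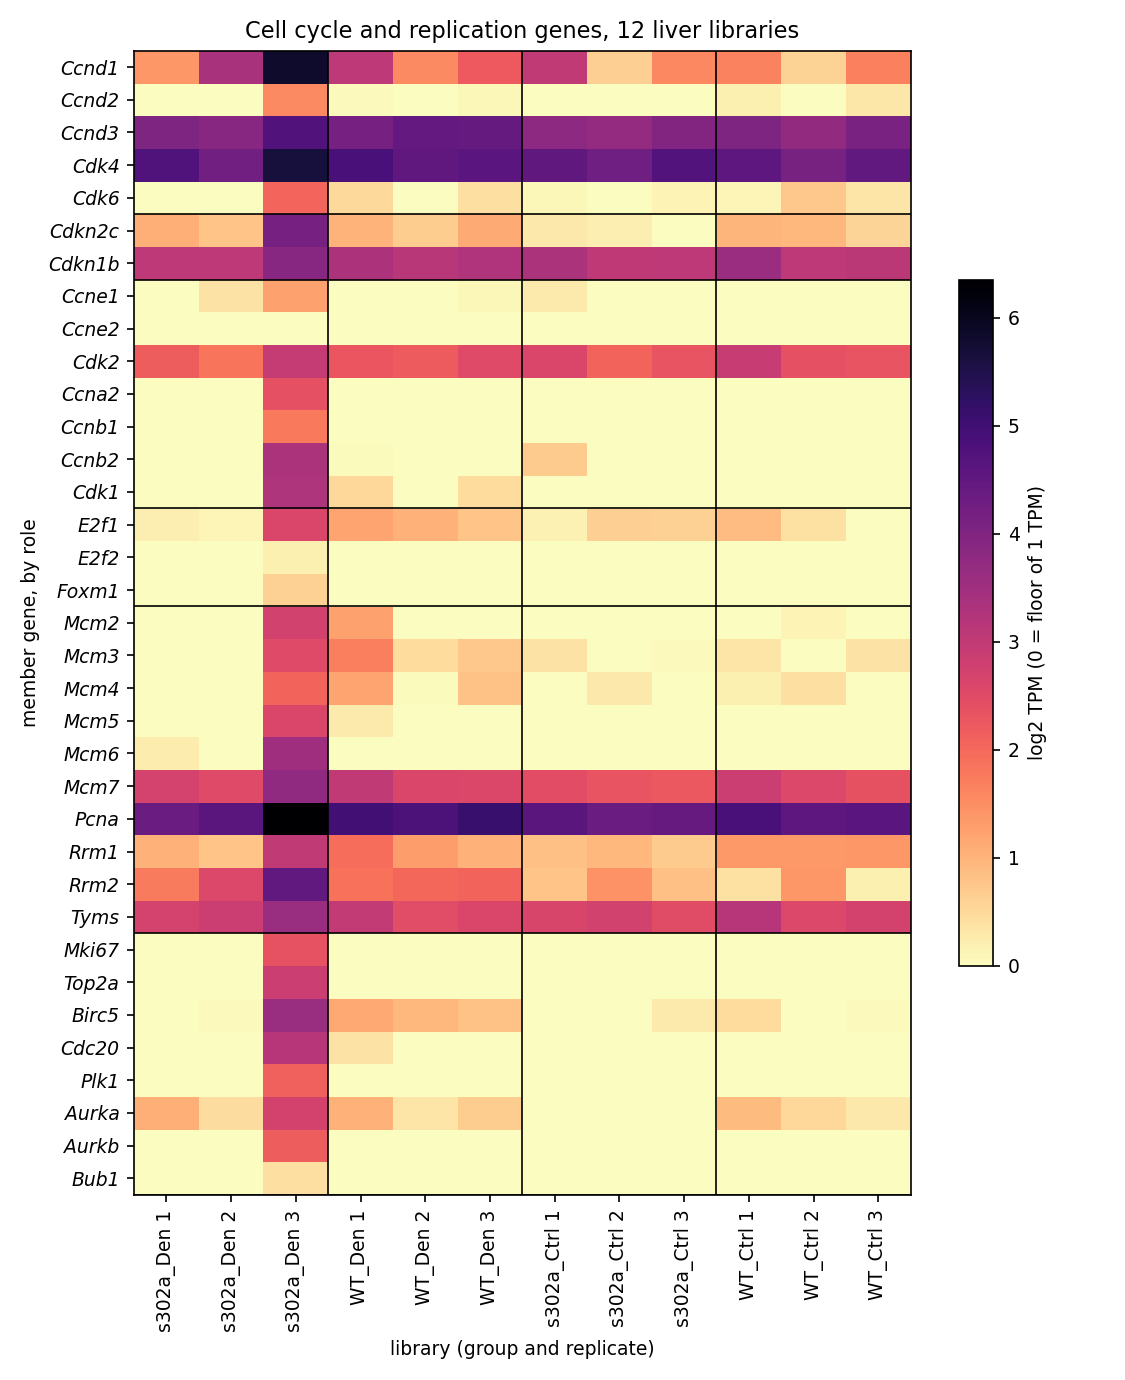
Level of each of the 35 genes (down the page, by role) in each of the 12 libraries (across, s302a_Den, WT_Den, s302a_Ctrl and WT_Ctrl), as log2 TPM in colour with the palest shade at the floor of 1 TPM. The column of s302a Den 3 has 34 of 35 genes above the floor, and the other 11 columns have 14 to 23.

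The library s302a Den 3 held the highest level of all 34 genes that stood above the floor anywhere. This is read against a high background, since it was also the highest library for 70.6% of the 13995 genes above 1 TPM in any library. After median-of-ratios scaling it remained the highest for 25 of the 34, against 24.8% of those 13995 genes. The 9 genes for which another library was then higher were Ccnd3, Cdk4, Cdkn1b, Ccne1, Cdk2, E2f2, Foxm1, Tyms and Bub1. Scaling also divides the floor, by 1.69 in s302a Den 3 and by less in the others, so E2f2, Foxm1 and Bub1, just above the floor in s302a Den 3, fell below libraries where they were listed at 1. The level in s302a Den 3 minus the mean of s302a Den 1 and 2, on the log2(TPM + 1) scale, had a median of 1.56 over the 34 genes, against 0.74 over the 13995 genes. With scaled values the medians were 0.86 and -0.028. With 1 library on one side these differences have no replicate check and were not tested.

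Among the D cyclins and their kinases, cyclin D1 stood out. Ccnd1 had 56.5 TPM in s302a Den 3, against 2.61 and 10.3 TPM in s302a Den 1 and 2 and at most 8.40 TPM in the other 9 libraries. The gene sits on the minus strand of chromosome 7 (mm10, 144929931 to 144939925), and its exons overlap a gene on the opposite strand. Its difference from the mean of s302a Den 1 and 2, 3.17 on the log2(TPM + 1) scale, was the widest of the 35 genes on that scale and, at 2.29, also after scaling. The order depends on the pseudocount: with 0.1 in place of 1, Birc5 was wider (3.46, against 3.41 for Ccnd1), and as plain ratios of TPM Birc5, Mcm6, Ccnb2, Cdk1 and Cdkn2c, all at or near the floor in s302a Den 1 and 2, exceeded the 8.76 of Ccnd1. Ccnd2, for cyclin D2, and Cdk6, for the second cyclin D kinase, were near the floor in the other 11 libraries (at most 1.23 and 1.65 TPM) and reached 2.96 and 4.16 TPM in s302a Den 3. Ccnd3 and Cdk4, which encode cyclin D3 and its main kinase, were abundant everywhere: s302a Den 3 had 26.4 TPM of Ccnd3 and 50.04 TPM of Cdk4, against 12.8 to 21.8 TPM and 17.4 to 29.1 TPM in the others. Their differences from s302a Den 1 and 2 were 0.72 and 1.11, against the median of 0.74 over all genes.

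The 2 CDK inhibitors parted. Cdkn2c, which encodes p18, an inhibitor of CDK4 and CDK6, had 18.0 TPM in s302a Den 3, against 1.00 to 2.18 TPM in the other 11 libraries. Cdkn1b, which encodes p27, an inhibitor of cyclin E and A complexes with CDK2, had 14.7 TPM there, against 8.18 to 12.03 TPM. The log2 differences from s302a Den 1 and 2 were 2.71 for Cdkn2c and 0.74 for Cdkn1b, the second close to the median of all genes.

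The later cyclins were at or near the floor outside s302a Den 3. Ccna2 and Ccnb1, which encode cyclins A2 and B1, had 5.28 and 3.42 TPM in s302a Den 3 and were at 1 in the other 11 libraries. Ccnb2, for cyclin B2, had 10.1 TPM there and at most 1.61 TPM elsewhere. Cdk1, the kinase that drives entry into mitosis, had 9.83 TPM in s302a Den 3, 1.42 and 1.37 TPM in WT Den 1 and 3, and was at 1 in the other 9 libraries. Ccne1, for cyclin E1, had 2.33 TPM in s302a Den 3 and at most 1.28 TPM elsewhere, and its kinase gene Cdk2 had 7.67 TPM there and 3.55 to 7.57 TPM elsewhere. Of the transcription factors, E2f1, an activator of the genes of DNA synthesis, had 6.10 TPM in s302a Den 3 and 1.00 to 2.32 TPM in the others. E2f2 and Foxm1, an activator of mitotic genes, stood at 1.14 and 1.51 TPM in s302a Den 3 and at 1 in all others, close to the floor.

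The replication genes differed by how much of each the other libraries already held. Of the 6 MCM helicase subunits, Mcm6 had 11.4 TPM in s302a Den 3, 1.18 TPM in s302a Den 1 and was at 1 in the other 10 libraries. Mcm2, Mcm3, Mcm4 and Mcm5 had 6.72, 5.72, 4.18 and 6.14 TPM in s302a Den 3, against at most 2.35, 3.26, 2.32 and 1.19 TPM elsewhere, and WT Den 1 was the highest of the other 11 for each of these 4. Mcm7 was above the floor everywhere, at 13.6 TPM in s302a Den 3 and 4.75 to 8.12 TPM in the others; its exons overlap Ap4m1 and Cops6 on the opposite strand and hold 2 microRNA genes. Mcm7 was the highest of the 6 subunits in all 12 libraries. Pcna, the sliding clamp of DNA polymerase, had 81.9 TPM in s302a Den 3, against 20.3 to 34.5 TPM. Rrm1 and Rrm2, the subunits of ribonucleotide reductase, had 8.14 and 22.2 TPM there, against 1.60 to 3.83 and 1.14 to 5.95 TPM, and Tyms, thymidylate synthase, had 12.2 TPM, against 5.57 to 8.999 TPM.

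Of the 8 mitotic genes and proliferation markers, 5 were above 1 TPM in s302a Den 3 alone. These were Mki67, which encodes the Ki-67 antigen (5.11 TPM), Top2a, DNA topoisomerase II alpha (7.24 TPM), Plk1 and Aurkb, mitotic kinases (4.38 and 4.53 TPM), and Bub1, a spindle checkpoint kinase (1.32 TPM). With Ccna2, Ccnb1, E2f2 and Foxm1 they made 9 members above the floor only there, against 7.64% of the 13995 genes. Cdc20, the activator of the anaphase-promoting complex, had 8.91 TPM in s302a Den 3, 1.28 TPM in WT Den 1 and was at 1 in the other 10. Birc5, which encodes survivin, a member of the complex that guides Aurora B, had 12.3 TPM there and at most 2.21 TPM elsewhere. Aurka, for the Aurora A kinase, had 6.59 TPM there and at most 2.07 TPM elsewhere.

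**Figure D2:**
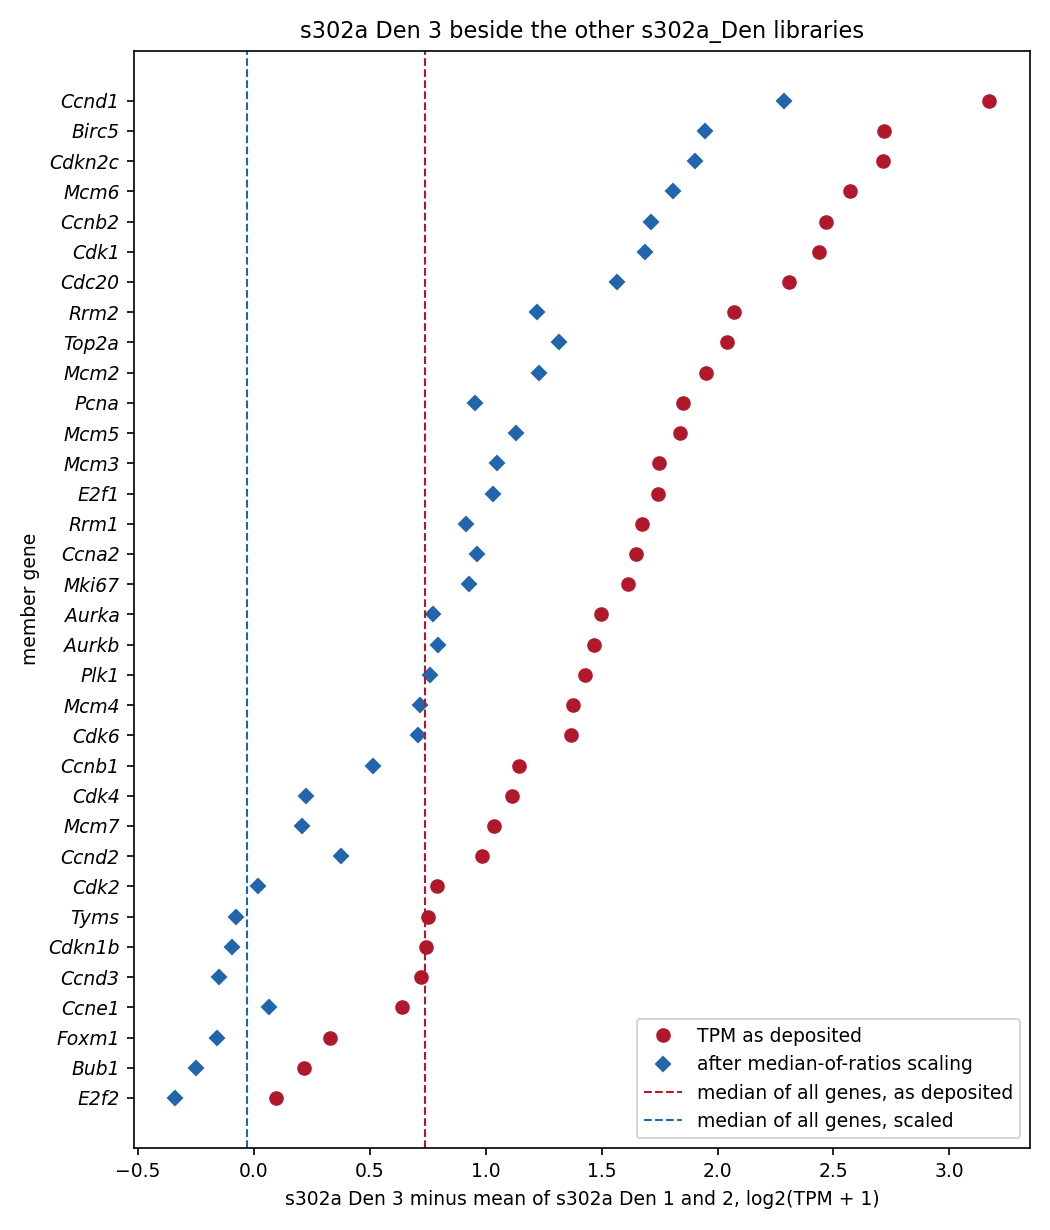
Level in s302a Den 3 minus the mean of s302a Den 1 and 2 on the log2(TPM + 1) scale (across) for the 34 genes above the floor anywhere (down the page), as deposited (circles) and after median-of-ratios scaling (diamonds); dashed lines give the medians of 13995 genes, 0.74 and -0.028. Ccnd1 lies farthest right at 3.17 and 2.29, and 28 of 34 genes are above 0 after scaling.

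Promoters were read because these genes stood high together in 1 library. RefSeq promoters of build GRCm38.p6, which is mm10, were matched by symbol for 28 of the 35 genes, with 32 promoters of 300 bases each, 250 before the transcript start and 50 after it; Mcm4, Ccnd1, Ccnd2, Ccna2, Ccne2, Foxm1 and Aurkb had no entry. Motifs were searched on both strands: the CCAAT box (CCAAT), the cell cycle genes homology region or CHR (TTTGAA or TTCGAA), to which the repressor complex DREAM and its activating relatives bind, and the E2F site (TTTCCCGC, TTTGGCGC, TTTGCCGC or TTTCGCGC), of which overlapping matches were each counted. A CCAAT box was in 24 of the 32 promoters (75.0%), against 37.4% of all 32851 RefSeq promoters of this length. A CHR was in 11 (34.4%), against 19.2%, and each of the 11 genes with a CHR also had a CCAAT box. An E2F site was in 7 (21.9%), against 2.26%. By role, 6 of 7 mitotic promoters held both a CCAAT box and a CHR, against 7.52% of all promoters. An E2F site was in 4 of 10 replication promoters, against 2.26%. The other counts were near the shares of all promoters. An E2F site was in 0 of 7 mitotic promoters, against 2.26%, and a CHR in 2 of 10 replication promoters, against 19.2%. A match is a run of letters and does not show that a factor binds there. The sequences given here are Cdc20 and Plk1 for the mitotic pattern, Mcm6 for the replication pattern and Cdk1, which held all 3 motifs, with motif matches in capitals and each sequence in the direction of its gene. The Cdc20 promoter lies at chr4:118437294-118437593 on the minus strand, Plk1 at chr7:122159185-122159484 on the plus strand, Mcm6 at chr1:128359656-128359955 on the minus strand and Cdk1 at chr10:69352863-69353162 on the minus strand.
Cdc20: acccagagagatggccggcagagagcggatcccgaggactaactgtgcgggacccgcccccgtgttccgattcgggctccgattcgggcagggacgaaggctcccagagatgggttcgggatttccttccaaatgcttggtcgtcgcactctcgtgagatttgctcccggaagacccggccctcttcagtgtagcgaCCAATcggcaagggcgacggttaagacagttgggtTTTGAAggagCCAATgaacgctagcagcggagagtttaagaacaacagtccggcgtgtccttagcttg
Plk1: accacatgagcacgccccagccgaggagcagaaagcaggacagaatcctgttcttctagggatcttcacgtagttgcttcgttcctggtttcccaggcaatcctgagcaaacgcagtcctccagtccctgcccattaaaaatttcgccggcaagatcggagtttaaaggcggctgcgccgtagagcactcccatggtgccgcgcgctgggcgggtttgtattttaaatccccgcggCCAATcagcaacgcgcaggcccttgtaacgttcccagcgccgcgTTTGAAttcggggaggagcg
Mcm6: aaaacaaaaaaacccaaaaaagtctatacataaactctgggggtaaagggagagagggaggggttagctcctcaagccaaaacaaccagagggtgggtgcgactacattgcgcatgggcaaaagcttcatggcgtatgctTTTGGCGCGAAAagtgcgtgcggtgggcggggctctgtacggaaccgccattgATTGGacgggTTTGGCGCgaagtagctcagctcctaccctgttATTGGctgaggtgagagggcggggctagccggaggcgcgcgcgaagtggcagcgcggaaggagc
Cdk1: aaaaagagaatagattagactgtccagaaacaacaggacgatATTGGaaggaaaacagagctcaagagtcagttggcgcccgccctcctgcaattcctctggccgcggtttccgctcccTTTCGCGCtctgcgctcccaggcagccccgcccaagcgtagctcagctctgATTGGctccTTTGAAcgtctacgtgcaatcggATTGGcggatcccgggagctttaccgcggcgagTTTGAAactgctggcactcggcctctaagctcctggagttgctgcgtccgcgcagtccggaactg
Outside s302a Den 3 these genes were at or near the floor: Cdc20 and Mcm6 stood above 1 TPM in 1 of the other 11 libraries each, Cdk1 in 2 and Plk1 in none of them. Birc5, Cdk4, Cdk6, E2f1, Ccne1 and Tyms, each highest in s302a Den 3 as deposited, had none of these motifs in their windows. The E2f1 window (chr2:154569377-154569676, minus strand) lies inside the gene, which starts at 154569892. The Cdk6 window (chr5:3343643-3343942, plus strand) also lies inside its gene, which starts at 3341485. For E2f1 and Cdk6 the sequence before these gene starts was therefore not searched. The motifs are fixed by the choice of genes, and their part in the levels was not tested.

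The comparisons between groups used limma on log2(TPM + 1), with 1 fit of all 4 groups and p-values adjusted by Benjamini-Hochberg over the 12120 genes above 1 TPM in at least 3 libraries. Of the 35 genes, 22 passed that filter and 13 did not: Ccne2, the 9 above the floor in s302a Den 3 alone, and Mcm5, Mcm6 and Cdc20. The filter is blind to group, but Cdk1, Ccnb2 and Mcm2 passed it only with s302a Den 3 counted. A difference on this scale understates the change of a gene near the floor.

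DEN in s302a livers gave the highest member values of the series and no call. Rrm2, the small subunit of ribonucleotide reductase, had 3.38, 5.95 and 22.2 TPM in s302a Den 1, 2 and 3, against 1.72, 2.72 and 1.77 TPM in s302a Ctrl. All 3 treated libraries lay above all 3 untreated ones, with a log2 difference of 1.55 ± 0.47 (SE, n = 3 each; limma adjusted p = 0.152), and the difference was 0.86 without s302a Den 3 (adjusted p = 0.113). Aurka had 2.07, 1.35 and 6.59 TPM in s302a Den and was at 1 in all 3 s302a Ctrl libraries (0.93 ± 0.33, limma adjusted p = 0.216; 0.42 without s302a Den 3). Cdkn2c had 2.09, 1.72 and 18.0 TPM in s302a Den, against 1.22, 1.15 and 1.00 TPM in s302a Ctrl. It too did not overlap (1.35 ± 0.54, limma adjusted p = 0.262; 0.45 without s302a Den 3). For Mcm7 the values were 6.52, 5.77 and 13.6 TPM in s302a Den and 5.41, 5.01 and 4.75 TPM in s302a Ctrl, again with every treated library above every untreated one (0.58 ± 0.28, limma adjusted p = 0.326; 0.24 without s302a Den 3).

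Other genes high in s302a Den 3 overlapped between these groups. Ccnd1 had 2.61, 10.3 and 56.5 TPM in s302a Den, against 8.14, 1.54 and 2.98 TPM in s302a Ctrl (1.55 ± 0.79, limma adjusted p = 0.340; 0.50 without s302a Den 3), so s302a Den 1 lay below 2 of the untreated libraries. Pcna had 20.3, 23.9 and 81.9 TPM in s302a Den and 23.8, 20.3 and 21.2 TPM in s302a Ctrl (0.63 ± 0.39, limma adjusted p = 0.402; 0.018 without s302a Den 3). Birc5 had 1.00, 1.05 and 12.3 TPM in s302a Den and 1.00, 1.00 and 1.20 TPM in s302a Ctrl (0.88 ± 0.53, limma adjusted p = 0.399; -0.027 without s302a Den 3). For Pcna and Birc5 the whole group difference thus sat in 1 library.

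In all, limma called 0 of the 22 tested members for DEN in s302a livers, where it called 0.619% of all tested genes, and 3 of the 22 members had an unadjusted p below 0.05, as had 1985 of the 12120 genes. The 4 genes whose groups did not overlap, Rrm2, Aurka, Cdkn2c and Mcm7, compare with 15.8% of all tested genes that lay higher in this way. The log2 difference was positive for 21 of 22 members, the exception being Cdk2, and for 79.5% of all tested genes. Without s302a Den 3 it was positive for 12 of 19 members and 50.1% of genes. Its median was 0.54 over the members and 0.27 over all tested genes, and 0.28 and 0.0052 after median-of-ratios scaling. Without that library the median was 0.018 over the 19 members, with a median of 0.00 over all genes then tested. The call rule with 3 libraries a group leaves wide intervals, from 0.54 to 2.56 for Rrm2 and from -0.16 to 3.26 for Ccnd1 (95%). Among the marker lists, the cholangiocyte and progenitor sum was 63.7 to 147 TPM in s302a Den and 21.1 to 24.8 TPM in s302a Ctrl, and the erythroid sum was 1433 to 2837 TPM in s302a Den and 3010 to 8929 TPM in s302a Ctrl, both without overlap. Their part in the member values was not tested.

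**Figure D3:**
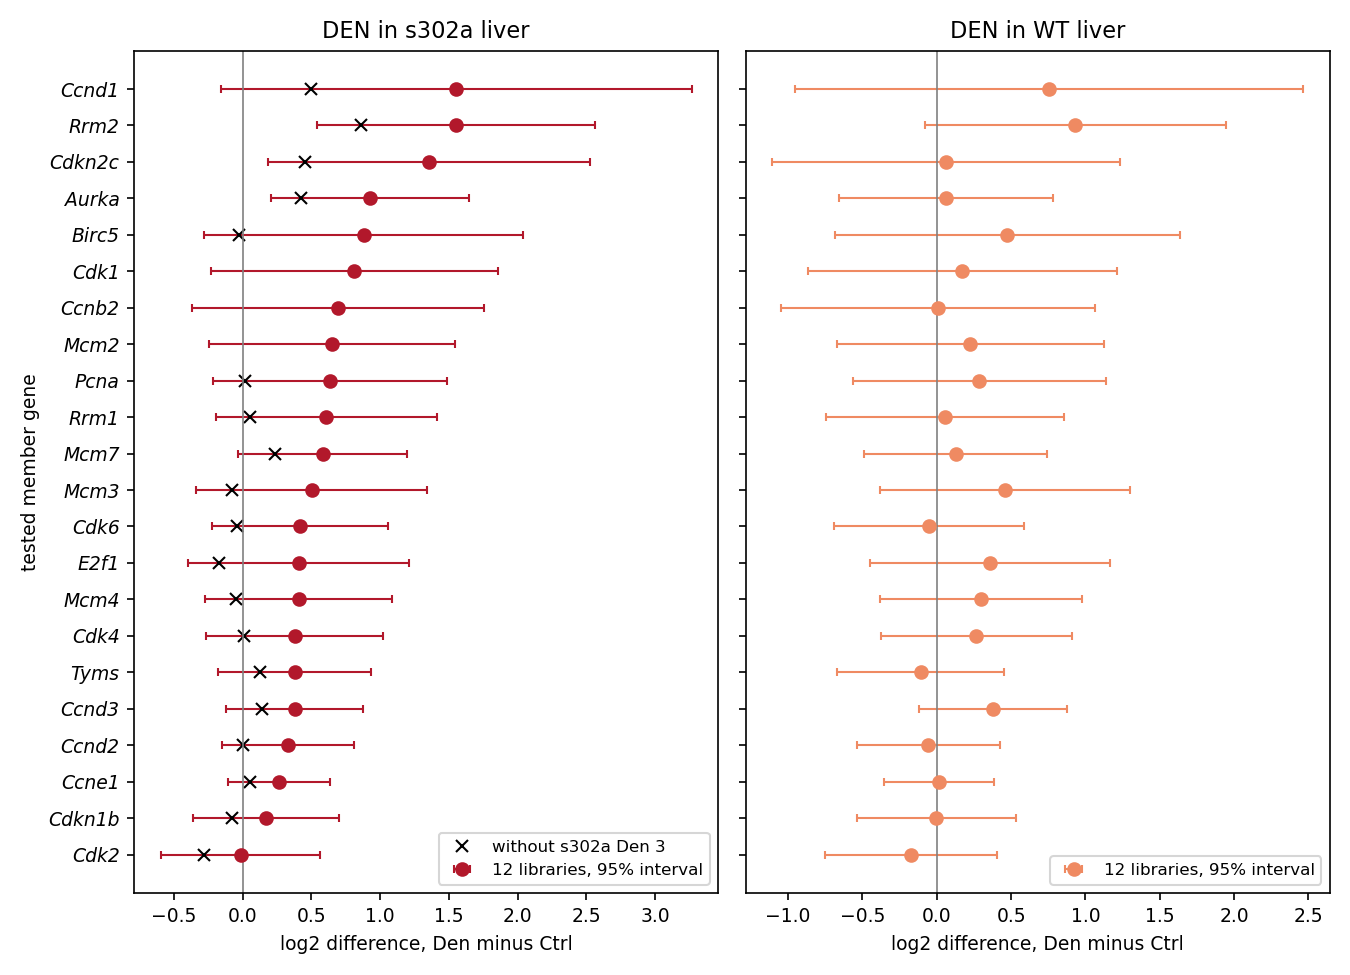
Log2 difference of DEN-treated minus untreated libraries for the 22 tested genes (down the page), in s302a liver (left) and WT liver (right), with circles for the fit of 12 libraries, bars for the 95% interval and, in s302a liver, crosses for the fit without s302a Den 3; Cdk1, Ccnb2 and Mcm2 have no cross because they were not tested without it. In s302a liver 21 of 22 circles lie above 0, with a median of 0.54, and the crosses have a median of 0.018.

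In WT livers no library stood apart as s302a Den 3 did, and 4 members were higher in every treated library than in any untreated one. Rrm2 had 3.65, 4.04 and 4.23 TPM in WT Den, against 1.30, 2.58 and 1.14 TPM in WT Ctrl, with no overlap (0.93 ± 0.47, limma adjusted p = 0.636; adjusted p = 0.061 without s302a Den 3, at the same difference). Its WT Den mean was 3.98 ± 0.298 TPM and its WT Ctrl mean 1.68 ± 0.791 TPM (SD, n = 3 each). Birc5 had 2.21, 1.95 and 1.74 TPM in WT Den, against 1.37, 1.00 and 1.04 TPM in WT Ctrl, and again no treated library reached down to an untreated one. The difference of 0.48 ± 0.53 was not called (limma adjusted p = 0.921), but it was called in the fit without s302a Den 3 (adjusted p = 0.0457), since all 4 groups share 1 estimate of the spread. Ccnd3 had 17.8, 21.8 and 21.4 TPM in WT Den and 16.3, 13.2 and 16.8 TPM in WT Ctrl (0.38 ± 0.23, limma adjusted p = 0.750). Mcm3 had 3.26, 1.36 and 1.66 TPM in WT Den and 1.26, 1.00 and 1.28 TPM in WT Ctrl (0.46 ± 0.39, limma adjusted p = 0.873).

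These 4 genes, Rrm2, Birc5, Ccnd3 and Mcm3, were the members whose groups did not overlap, all with WT Den higher, against 21.7% of all tested genes. By limma 0 of 22 members were called, against 0.132% of all tested genes, and 0 had an unadjusted p below 0.05. Without s302a Den 3, 1 of 19 was called, Birc5, against 1.93% of all genes called higher. The median log2 difference was 0.15 over the members and 0.13 over all genes, and 0.021 and -0.018 after scaling. The mitotic genes Mki67, Top2a, Plk1, Aurkb and Bub1 and the cyclin genes Ccna2 and Ccnb1 were at 1 in all 3 WT Den and all 3 WT Ctrl libraries. Within WT Den the libraries were uneven: WT Den 1 listed 23 of the 35 genes above 1 TPM, WT Den 3 listed 20 and WT Den 2 listed 16. The hepatocyte marker sum was 73377 to 88015 TPM in WT Den and 39849 to 64390 TPM in WT Ctrl, and the endothelial sum was 63.6 to 89.1 TPM in WT Den and 47.9 to 61.7 TPM in WT Ctrl. Their part in these differences was not tested.

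**Figure D4:**
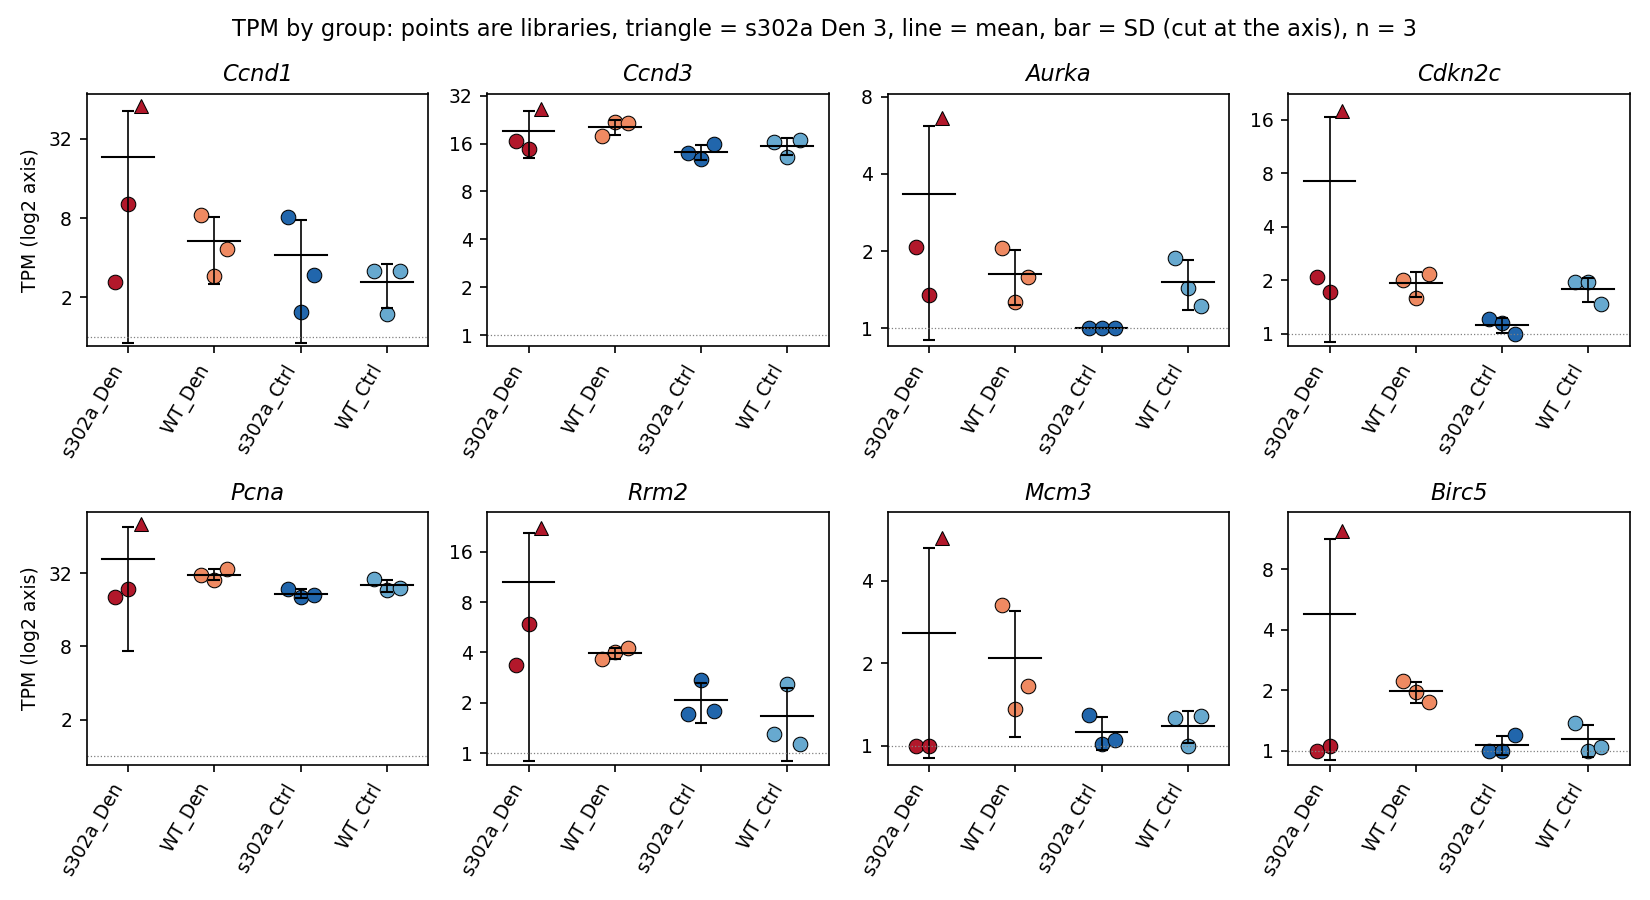
TPM on a log2 axis for 8 genes in s302a_Den, WT_Den, s302a_Ctrl and WT_Ctrl (left to right), with a point for each library, a triangle for s302a Den 3, a line at the mean and a bar of 1 SD cut at the axis (n = 3); the dotted line is the floor of 1 TPM. Birc5 is at 1.74 to 2.21 TPM in WT_Den, while s302a Den 1 and 2 are at 1.00 and 1.05 TPM and s302a Den 3 is at 12.3 TPM.

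Between genotypes after DEN, the direction of several members hung on s302a Den 3. Birc5 had 1.00, 1.05 and 12.3 TPM in s302a Den, against 2.21, 1.95 and 1.74 TPM in WT Den: 2 knock-in libraries lay below all wild-type ones and 1 lay above them. Its log2 difference was 0.36 ± 0.53 (limma adjusted p = 0.941), and without s302a Den 3 it was -0.55 and called (adjusted p = 0.0254). Pcna, at 20.3, 23.9 and 81.9 TPM in s302a Den against 31.3, 27.98 and 34.5 TPM in WT Den, split in the same manner (0.13 ± 0.39, limma adjusted p = 0.982; -0.48 with adjusted p = 0.0801 without s302a Den 3). Rrm2, at 3.38, 5.95 and 22.2 TPM in s302a Den against 3.65, 4.04 and 4.23 TPM in WT Den, was higher on average by 0.84 ± 0.47 (limma adjusted p = 0.735), by 0.15 without s302a Den 3 and by -0.10 in a fit with array weights, which weighted s302a Den 3 at 0.0498. Ccnd1 differed by 1.16 ± 0.79 (limma adjusted p = 0.808), by 0.11 without that library and by -0.27 with array weights. In this comparison limma called 0 of 22 members, against 0.38% of all tested genes, with 0 at an unadjusted p below 0.05, and 0 members had groups that did not overlap, against 3.23% of genes higher and 6.19% lower. Without s302a Den 3 it called 1 of 19 members, against 5.3% of all genes called lower. Medians were 0.29 over the members and 0.067 over all genes, and -0.16 and -0.20 without s302a Den 3. The hepatocyte marker sum was 52201 to 60892 TPM in s302a Den and 73377 to 88015 TPM in WT Den, the cholangiocyte and progenitor sum was 63.7 to 147 TPM in s302a Den and 24.1 to 33.3 TPM in WT Den, and their part was not tested.

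Between untreated genotypes the members lay close together. Rrm1 had 1.78, 1.94 and 1.60 TPM in s302a Ctrl, against 2.55, 2.55 and 2.61 TPM in WT Ctrl (-0.37 ± 0.37, limma adjusted p = 1). Aurka was at 1 in all 3 s302a Ctrl libraries, against 1.87, 1.43 and 1.23 TPM in WT Ctrl (-0.32 ± 0.33, limma adjusted p = 1), and Cdkn2c had 1.22, 1.15 and 1.00 TPM in s302a Ctrl, against 1.97, 1.94 and 1.48 TPM in WT Ctrl (-0.39 ± 0.54, limma adjusted p = 1). In these 3 genes every knock-in library lay below every wild-type one, against 5.27% of all tested genes, and 0 members lay above, against 1.69%. By limma 0 of 22 were called, against 0.033% of all genes, with 0 at an unadjusted p below 0.05, and the median log2 difference was -0.068 over the members and -0.067 over all genes. The s302a Ctrl libraries are also those that s302a Den is set against, so Aurka and Cdkn2c, low in these 3 libraries, enter both comparisons through the same values. The erythroid sum was 3010 to 8929 TPM in s302a Ctrl and 1579 to 2840 TPM in WT Ctrl, and its part was not tested.

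The difference between the DEN effects of the genotypes was tested as an interaction. Cdkn2c gave 1.29 ± 0.76, Aurka 0.86 ± 0.47, Rrm2 0.62 ± 0.66 and Birc5 0.40 ± 0.75 on the log2 scale, with limma adjusted p of 0.975 to 0.977. Without s302a Den 3 these values were 0.39 for Cdkn2c, 0.36 for Aurka, -0.073 for Rrm2 and -0.50 for Birc5. Limma called 0 of 22 members, against 0.0413% of all tested genes, with 0 at an unadjusted p below 0.05. The interaction was positive for 21 of 22 members and 66.6% of all genes, with a median of 0.41 over the members and 0.14 over all genes. Without s302a Den 3 it was positive for 7 of 19 members and 33.9% of genes, with medians of -0.074 and -0.13. The DEN effect on the members was therefore not shown to differ between the genotypes.

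Other genes of the pathway were read from 3 lists. The origin licensing and replication fork list had 30 of 39 genes tested, the mitotic spindle, kinetochore and cytokinesis list 14 of 35, and the list of RB-E2F, DREAM and CDK regulators 22 of 28. Their genes stood highest in s302a Den 3 for 32 of 37, 30 of 33 and 22 of 26 genes above the floor, in the same order, against 70.6% of all genes above it, and after scaling for 17, 21 and 14, against 24.8%. In all, 16 spindle genes, 4 replication genes and 2 regulators were above the floor only there, against 7.64% of genes. Orc1 and Cdc6, Cenpf and Melk, and E2f7 and Mybl2 were at 1 in all 12 libraries. One gene of the 3 lists was called, and in both genotypes: Cdkn1a, which encodes p21, a CDK inhibitor and p53 target, had 16.5, 11.9 and 31.0 TPM in s302a Den, against 1 in all 3 s302a Ctrl libraries. In WT Den it had 15.7, 16.7 and 18.0 TPM, against 1.00, 2.66 and 1.00 TPM in WT Ctrl. Groups did not overlap in either genotype, and s302a Den 1 and 2 were close to the WT Den libraries. The log2 differences were 3.27 ± 0.33 (limma adjusted p = 0.00159) and 2.86 ± 0.33 (adjusted p = 0.00693), and both depend on the floor, at which all 3 s302a Ctrl libraries and WT Ctrl 1 and 3 stood. Thus Cdkn1a was higher in every treated library than in any untreated one, while Mki67, Top2a and Plk1 were listed above the floor in 1 of the 6.

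The genes with the smallest p in the other lists were not called. Bub3, a spindle checkpoint protein, had 16.2, 11.6 and 25.8 TPM in s302a Den and 8.68, 11.4 and 10.2 TPM in s302a Ctrl (0.70 ± 0.26, limma adjusted p = 0.225). Pold2, a subunit of DNA polymerase delta, had 7.84, 4.80 and 12.5 TPM in s302a Den and 3.78, 3.88 and 4.10 TPM in s302a Ctrl (0.84 ± 0.30, limma adjusted p = 0.206). Rfc2, of the clamp loader, differed by 0.58 ± 0.26 in the same comparison, E2f5 by 0.59 ± 0.26, E2f6 by 0.62 ± 0.30 and Tfdp1, the partner of E2F proteins, by 0.63 ± 0.31, with limma adjusted p of 0.295 to 0.330. Much of each difference lay in s302a Den 3: without it they were 0.41 for Bub3, 0.54 for Pold2, 0.27 for Rfc2, 0.30 for E2f5, 0.24 for E2f6 and 0.21 for Tfdp1. Ccnf, which encodes cyclin F, had 7.35, 3.10 and 7.25 TPM in WT Den and 1.46, 4.06 and 1.46 TPM in WT Ctrl (1.07 ± 0.49, limma adjusted p = 0.607). Spc24, of the kinetochore, had 19.6, 16.9 and 18.3 TPM in WT Den and 15.2, 6.82 and 6.23 TPM in WT Ctrl (0.98 ± 0.48, limma adjusted p = 0.623), without overlap. Pole, the catalytic subunit of DNA polymerase epsilon, had 2.54, 1.71 and 1.82 TPM in WT Den and 1.34, 1.00 and 1.00 TPM in WT Ctrl (0.51 ± 0.19, limma adjusted p = 0.472).

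Pttg1 and Tk1 had their smallest p in comparisons of the genotypes, again without a call. Pttg1, which encodes securin, the inhibitor of separase, had 4.91, 5.23 and 5.45 TPM in s302a Ctrl, against 69.5, 35.004 and 29.6 TPM in WT Ctrl, and the groups did not overlap (-2.79 ± 0.85, limma adjusted p = 1). After DEN it had 3.63, 3.49 and 39.4 TPM in s302a Den and 65.6, 53.6 and 7.39 TPM in WT Den. The libraries thus fell into levels of 3.49 to 7.39 and 29.6 to 69.5 TPM, with s302a Den 3 and WT Den 3 each at the level of the other genotype. Whether these 2 libraries carry each other's label could not be checked; if they did, their values given above would belong to the other genotype. Spp1, which encodes osteopontin, was singled out after its values were seen. It had 59.0, 55.3 and 122 TPM in s302a Den and 19.4, 16.9 and 25.9 TPM in WT Den. In untreated livers the genotypes overlapped, at 17.1, 13.7 and 14.9 TPM in s302a Ctrl and 16.8, 32.1 and 17.5 TPM in WT Ctrl. Marco and Sox9 were singled out in the same way. Marco had 32.9, 3.09 and 17.5 TPM in s302a Den and was at 1 in all 3 WT Den libraries. Sox9 had 4.24, 2.35 and 13.3 TPM in s302a Den and 1.68, 1.19 and 1.37 TPM in WT Den. For Spp1, Marco and Sox9, WT Den 3 thus lay below s302a Den 1 and 2, while for Pttg1 it lay near them. The library s302a Den 3 was also the highest for 70.6% of all genes, and the labels were not tested. Tk1, thymidine kinase, had 8.33, 5.10 and 27.5 TPM in s302a Den and 14.2, 41.7 and 42.9 TPM in WT Den (-1.38 ± 0.53, limma adjusted p = 0.462), against 16.2, 12.8 and 21.2 TPM in s302a Ctrl and 13.6, 9.99 and 19.9 TPM in WT Ctrl. Without s302a Den 3, genes of these lists called lower in s302a Den than in WT Den included Pttg1, Cdc25a, Cks2, Spc25, Tk1 and Pole, with log2 differences from -2.78 for Pttg1 to -0.36 for Cdc25a and limma adjusted p from 0.0268 for Spc25 to 0.0446 for Pttg1. Cdc25a, a phosphatase that activates CDK2, was also called higher in WT Den than in WT Ctrl in that fit (0.40, limma adjusted p = 0.0402).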

How the data were processed

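Total liver RNA was sequenced as 12 TruSeq RNA libraries on an Illumina HiSeq, per the labels' protocols. Abundance was estimated with kallisto against mm10, per the submitters' processing notes, which state no version. The authors deposited TPM per gene symbol; a floor of 1 is read from the values and is not stated. TPM keeps no depth, so counting precision is unknown.

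The 35 members were matched by symbol, and the members and lists were chosen with earlier results of these data known. Values were tested as log2(TPM + 1) with limma 3.58.1 in R 4.3.3 (trended empirical Bayes, 4 group means), on 12120 genes above 1 TPM in at least 3 of 12 libraries, with Benjamini-Hochberg adjustment and a threshold of 0.05. The code was tested on simulated data. Named list genes were the 4 with the smallest p in any comparison, plus Cdkn1a. Gene positions followed GENCODE vM21 and promoters RefSeq, both mm10. Exons of 11 members overlap an opposite-strand gene (Cdk4 and Tspan31, for example), strand-specific counting is not given in the sources used here, and Ccnd3, Ccnb1, Ccnb2, Pcna and Tyms have named pseudogenes, so these values may hold reads of a neighbour or copy. Adgre1, Jchain, Ly6g and Hba-a1 of the marker lists were not used here. Some list genes are not reported here. The fits were repeated with pseudocounts of 0.1 and 0.5, no filter, TPM of at least 5, median-of-ratios scaling, array weights, robust moderation, the compared libraries alone, a replicate block and leaving out each library.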

Additional observations from a re-analysis of the deposited data

How the results depend on the processing

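Members called stayed at 0 in all comparisons with both pseudocounts, without a filter, with TPM of at least 5, after median-of-ratios scaling, with robust moderation, with the compared libraries alone and with a replicate block. Leaving out each library in turn gave 0 to 1 for DEN in WT and for s302a after DEN (Birc5, without s302a Den 3), and 0 in the other comparisons. Array weights gave s302a Den 3 a weight of 0.0498 and called 1 member for DEN in s302a livers (Aurka, 0.58), 3 for DEN in WT (Rrm2, Ccnd3 and Birc5) and 2 for s302a after DEN (Pcna and Birc5). Array weights also called far more genes over all those tested, in the counts given below, and the member calls are read against these. The weights turned Pcna (-0.033) and Birc5 (-0.0063) for DEN in s302a livers, Rrm2 (-0.10), Ccnd1 (-0.27), Birc5 (-0.48) and Pcna (-0.56) after DEN, and Birc5 (-0.49) and Rrm2 (-0.32) in the interaction. With a library left out, Birc5 ranged from -0.027 to 1.34 for DEN in s302a livers, from -0.55 to 0.82 after DEN and from -0.50 to 0.87 in the interaction, Pcna from -0.48 to 0.50 after DEN and Rrm2 from -0.073 to 1.13 in the interaction, each turning only without s302a Den 3. The median member difference of s302a Den 3 was 1.81 and 2.05 with pseudocounts of 0.5 and 0.1, and 0.86 after scaling.

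Calls over all genes moved more. For DEN in s302a livers 75 genes were called (51 higher), 651 after scaling (306 higher), 13 without a filter, 132 with TPM of at least 5, 17 with the compared libraries alone, 1609 with array weights and 16 to 335 with a library left out. For DEN in WT it was 16 (14 higher), 19 after scaling (11 higher), 2 without a filter, 147 alone, 2057 with array weights and 1 to 258. For s302a after DEN it was 46, 210 after scaling, 9 without a filter, 4 alone, 1996 with array weights and 6 to 700. The 1609, 2057 and 1996 calls with array weights were among 12120 tested genes, beside 1, 3 and 2 of 22 members. The interaction gave 5 (3 higher), 12 after scaling (4 higher), 3 without a filter, 508 with array weights and 2 to 75. Without DEN it was 4, with 0 without a filter, 2 alone and 0 to 12. The cause was not tested. Same-numbered libraries correlated in their deviations at -0.108 to 0.282, so the numbers were not taken to pair them; with a replicate block 60, 5, 31, 3 and 5 genes were called for DEN in s302a, DEN in WT, after DEN, without DEN and the interaction.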

Other observations

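In s302a Den 3, Mcm10, a replication initiation factor singled out after its values were seen, ran opposite to the MCM helicase genes. The contrast rests on that library alone. It had 89.5, 94.9 and 14.7 TPM in s302a Den, 66.4, 58.9 and 50.6 TPM in WT Den, 92.6, 73.3 and 73.8 TPM in s302a Ctrl and 111, 62.2 and 90.7 TPM in WT Ctrl. The library s302a Den 3, highest for all 6 MCM helicase subunits, was thus the lowest of the 12 for Mcm10. In all 12 libraries Mcm10 stood above each helicase subunit, of which Mcm7 was the highest, at 13.6 TPM in s302a Den 3 and 4.75 to 8.12 TPM in the others.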
